A study of Mus musculus with 24 samples.

Results

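Lymphoid progenitors (LPs) with a deletion of *Med12* were compared directly with LPs with a deletion of *Ctcf*. The 6 libraries were chosen by their labels, 3 transduced with sgMed12 and 3 with sgCTCF in the second of the study's transcriptome experiments, out of 24 libraries in the series. The comparison asks which genes separate the loss of a Mediator subunit from the loss of CTCF in the same cells, as the study placed both proteins in complexes with RUNX1 in LPs. The 3 control libraries of this experiment carried an sgRNA against luciferase (sgControl). They entered neither side of the contrast, and their levels are quoted only as a reference. They did enter the fit that set the spread and the filter on low values, as did 3 libraries with a deletion of *Cbfb*.

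Mediator is the large complex that passes signals from enhancer-bound transcription factors to RNA polymerase II. Med12 belongs to its detachable kinase module, where it activates Cdk8 or Cdk19 together with cyclin C. CTCF is a zinc finger protein that binds a long, conserved DNA motif and halts cohesin there, so that chromatin is folded into insulated loops. In lymphoid progenitors these loops set which enhancers a promoter can reach, for instance at antigen receptor loci.

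The cells of both groups were Cas9-LPs, a line made from fetal liver progenitors of Ebf1-deficient mice carrying a Rosa26-Cas9 knock-in allele, so both groups and the controls came from a background deficient for a factor of B cell commitment and carried Cas9. They were grown on OP9 stromal cells arrested with mitomycin C, with SCF, Flt3L and IL-7 and without a Notch ligand. A pool of 3 retroviral sgRNA vectors was used for each gene, and hNGFR+CD45+ cells were sorted 5 days after transduction, so each library averages over cells with different edits. The methods call the 3 replicates of a group biologically independent, and all of them come from 1 kind of cell line.

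RNA was read by QuantSeq, which counts 1 tag near the 3′ end of a polyadenylated transcript, and values are CPM, the reads of a gene scaled to a common library total. The sgMed12 libraries held 3441245 to 3538904 reads on genes and the sgCTCF libraries 3591237 to 4326782, so that 3 reads corresponded to 0.693 to 0.872 CPM. Across 8594 genes the sgCTCF libraries correlated with each other at Pearson r of 0.9825 to 0.9846, and the sgMed12 libraries at 0.9463 to 0.9767. The lowest value was that of sgMed12 replicates 1 and 2.

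The sgMed12 replicates 1 and 3 stood apart in composition. Mitochondrially encoded transcripts took 13.7%, 8.44% and 11.2% of reads in sgMed12 replicates 1, 2 and 3, against 8.05% to 8.15% in the sgCTCF libraries. TEC genes, a GENCODE class of transcribed loci with little other evidence, took 0.500%, 0.219% and 0.456% against 0.158% to 0.184%. Both shares were higher in every sgMed12 library, with an exact two-sided permutation p of 0.1, the smallest that 3 against 3 libraries can give. The part of this composition in the results below was not tested. For some results the difference from sgMed12 replicate 2 alone is also given. For others only the values with 1 library left out are given, which do not remove sgMed12 replicates 1 and 3 together.

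**Figure D1:**
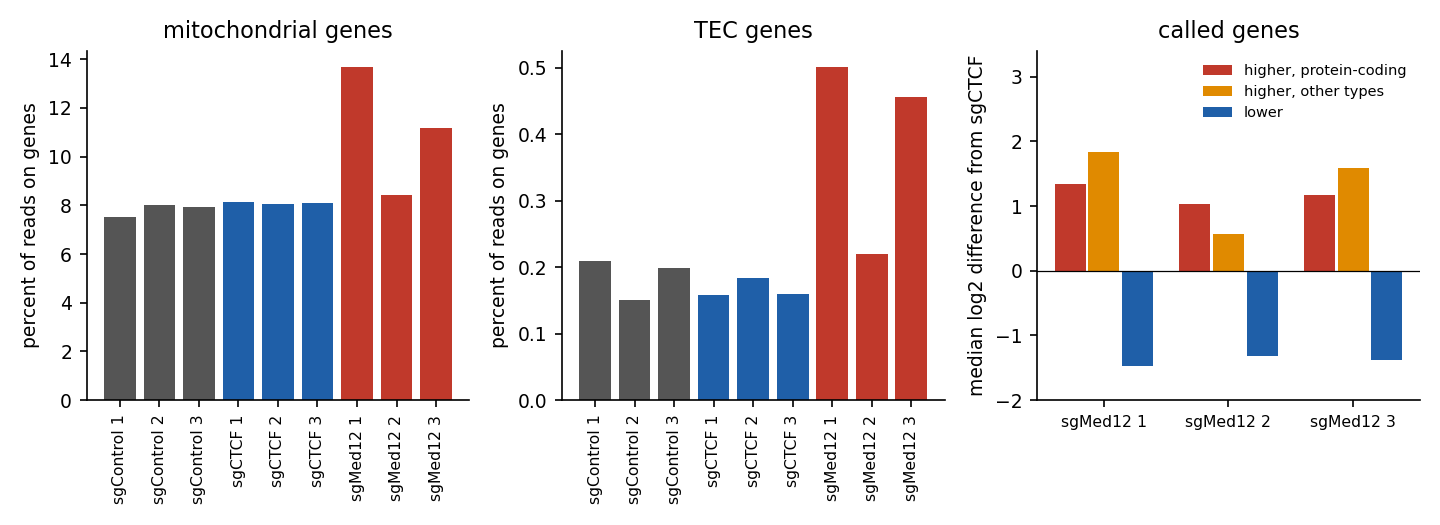
Composition of the sgControl, sgCTCF and sgMed12 libraries, with each bar 1 library, as the percent of reads on mitochondrially encoded genes (left) and on TEC genes (middle), and the median log2 difference of the called genes in each sgMed12 library from the sgCTCF mean (right), by class of gene. Both shares were highest in sgMed12 replicates 1 and 3, and in sgMed12 replicate 2 the median of the higher genes of other types was 0.56, against 1.83 and 1.58 in replicates 1 and 3.

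Markers of the sorted population were present in all 6 libraries. *Ptprc*, which encodes the sorted antigen CD45, was at 399, 516 and 508 CPM in the sgMed12 libraries and at 705, 757 and 627 CPM in the sgCTCF libraries (log2 difference −0.56, adjusted P = 0.0011 by limma). *Flt3* and *Il7r*, receptors for supplied cytokines, differed by −0.30 and −0.59. These values lay below the fold threshold of a call. Other markers went either way. *Kit* (0.74) and *Rag1* (0.60) were not called, *Cd34* was called higher (1.45) and *Dntt* called lower (−1.10). *Ebf1* tags were still listed, at 339, 197 and 286 CPM in the sgMed12 libraries and at 175, 182 and 208 CPM in the sgCTCF libraries, although the line was made from Ebf1-deficient mice. Genes of stromal cells summed to 1156 to 1211 CPM in sgMed12 and 1176 to 1286 CPM in sgCTCF libraries, with *Col3a1*, *Postn* and *Dcn* at 0 in all 6. In bulk RNA, fewer cells of a type and less RNA per cell cannot be told apart.

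The targeted genes come first. *Ctcf* (chr8:105636568-105682922, plus strand, GRCm38) was at 370, 342 and 382 CPM in the sgMed12 libraries and at 330, 272 and 314 CPM in the sgCTCF libraries. The groups did not overlap, and the log2 difference of 0.26 had a 95% interval of 0.05 to 0.46 (adjusted P = 0.0701). *Med12* (chrX:101274030-101297465, plus strand) was at 9.61, 3.20 and 8.23 CPM against 2.42, 5.85 and 5.78 CPM. Here the groups overlapped, with a log2 difference of 0.46 and an interval of −0.27 to 1.19 (adjusted P = 0.383). sgMed12 replicate 2 had the lowest *Med12* level of its group, and from this library alone the difference was −0.37. A 3′ tag is read whether or not the coding sequence is cut upstream, so neither level checks the deletion. The paper checked depletion of both proteins by immunoblot of hNGFR+ cells, on an earlier day than the RNA was taken. An exon of *Ctcf* overlaps the antisense gene *Gm5914*, and one of *Med12* overlaps *Gm21986* on its own strand, so reads there could be split.

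Of 13177 genes tested by limma on log2(CPM + 1), 303 were lower (2.3%) and 225 higher (1.71%) in sgMed12 than in sgCTCF. A call required an adjusted P under 0.05, group means that differed more than 2-fold and at least 1 group mean over 10 CPM. Calls in either direction made up 4.01% of tested genes, and for 32.4% the 3 libraries of one group did not overlap those of the other. The lower genes were almost all protein-coding (297 of 303). Among the higher genes, 125 were protein-coding and 100 were not, including 63 TEC genes (9.45% of the TEC genes tested). The median log2 difference over all tested genes was −0.02. Without sgMed12 replicate 2 there were 412 lower and 368 higher genes, and without sgMed12 replicate 1 there were 293 and 148.

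**Figure D2:**
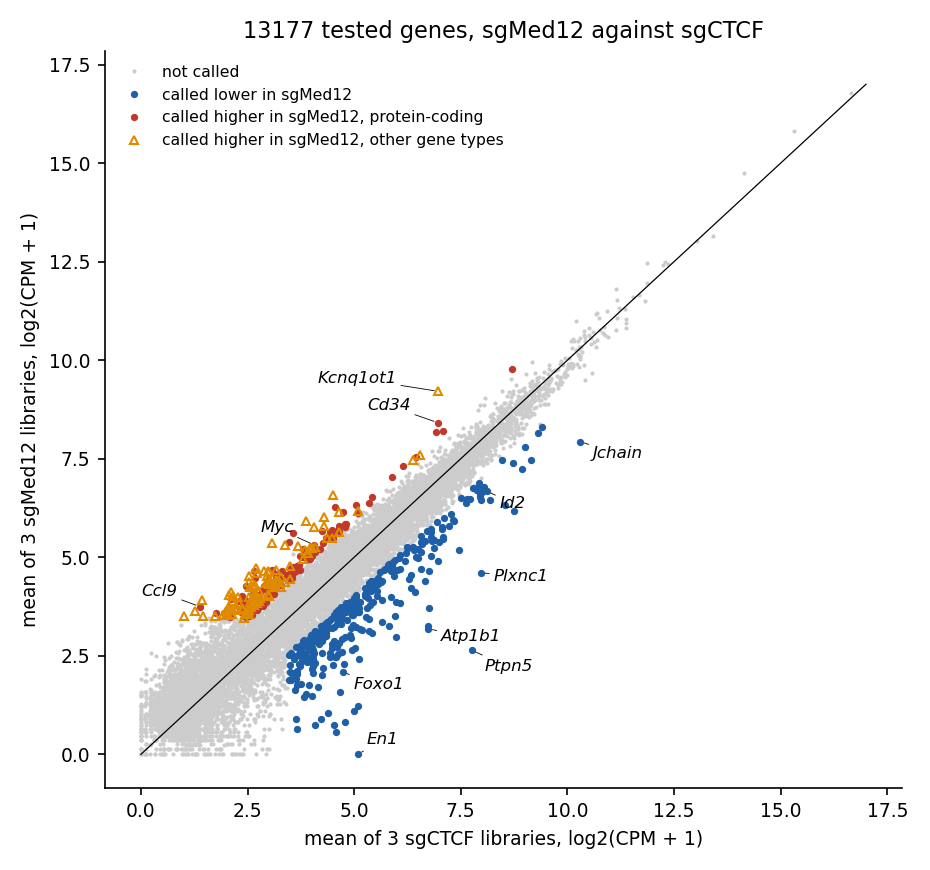
Mean log2(CPM + 1) of each of the 13177 tested genes in the 3 sgCTCF libraries (x axis) and in the 3 sgMed12 libraries (y axis), with the line marking equal levels. The 303 lower genes (blue) reach further from the line than the 225 higher ones (red for protein-coding, open triangles for other types), with *Ptpn5* and *En1* farthest below it.

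The sgControl level placed the called genes. For 224 of the 303 lower genes the sgControl mean lay between the 2 deletions, for 73 below both and for 6 above both, and for 255 it was nearer to the sgMed12 mean on the log scale. For the 125 higher protein-coding genes it lay between in 100 and nearer to sgMed12 in 90. The higher genes that were not protein-coding differed from this, with sgControl nearer to sgCTCF in 94 of 100. For most called protein-coding genes, then, the sgCTCF mean was farther from sgControl than the sgMed12 mean was.

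The genes that fell furthest in sgMed12 relative to sgCTCF included a phosphatase, a homeobox factor, E-cadherin and an actin-bundling protein. *Ptpn5*, a tyrosine phosphatase best known from neurons (chr7:47077795-47133684, minus strand), was at 9.32, 4.94 and 1.42 CPM in the sgMed12 libraries and at 219, 239 and 188 CPM in the sgCTCF libraries (log2 difference −5.35, SE 0.37, adjusted P = 2.77e-10). Every sgCTCF library was above every sgMed12 library, and sgControl averaged 2.73 CPM. *En1*, a homeobox transcription factor of the developing midbrain and limb (chr1:120602418-120607992, plus strand), had no read in any sgMed12 or sgControl library and 34.9, 38.1 and 26.3 CPM in the sgCTCF libraries. Against a floor of 3 reads per library it was at least 38.7-fold lower in sgMed12 (adjusted P = 1.56e-10).

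*Plxnc1*, a semaphorin receptor, had the most significant of the named differences. It was at 18.4, 29.6 and 22.1 CPM in the sgMed12 libraries and at 259, 270 and 220 CPM in the sgCTCF libraries (−3.38, SE 0.17, adjusted P = 1.62e-12). *Cdh1*, the adhesion protein E-cadherin, was at 6.78, 8.72 and 9.93 CPM against 114, 104 and 101 CPM (−3.51), a narrow range within each group. *Atp1b1*, a subunit of the sodium pump, was at 7.06, 4.94 and 12.2 CPM against 118, 112 and 87.6 CPM. Its exons overlap those of *Nme7* on the other strand.

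Several genes with large falls were near the detection floor in sgMed12. *Fscn1*, which bundles actin filaments, was at 1.70, 0.872 and 0.852 CPM against 34.9, 34.2 and 23.8 CPM. *Hpse*, the enzyme that cleaves heparan sulphate, was at 1.98, 0 and 0.284 CPM against 24.4, 30.9 and 24.3 CPM (−4.13). The matrix crosslinker *Loxl2* had 5 reads over the sgMed12 libraries and 265 over the sgCTCF libraries, a ratio of 47.8 with a counting interval of 20.2 to 148. *Olfr523*, an olfactory receptor gene, had 7 and 183 reads, a ratio of 23.6 with an interval of 11.2 to 59.5. *Uchl1*, a ubiquitin hydrolase, *Fam49a*, *Nsg2* and *Fam81a* completed the largest falls, with log2 differences of −3.84, −3.90, −3.27 and −3.10. In each of these genes the 2 groups did not overlap, which the rule that named them required.

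**Figure D3:**
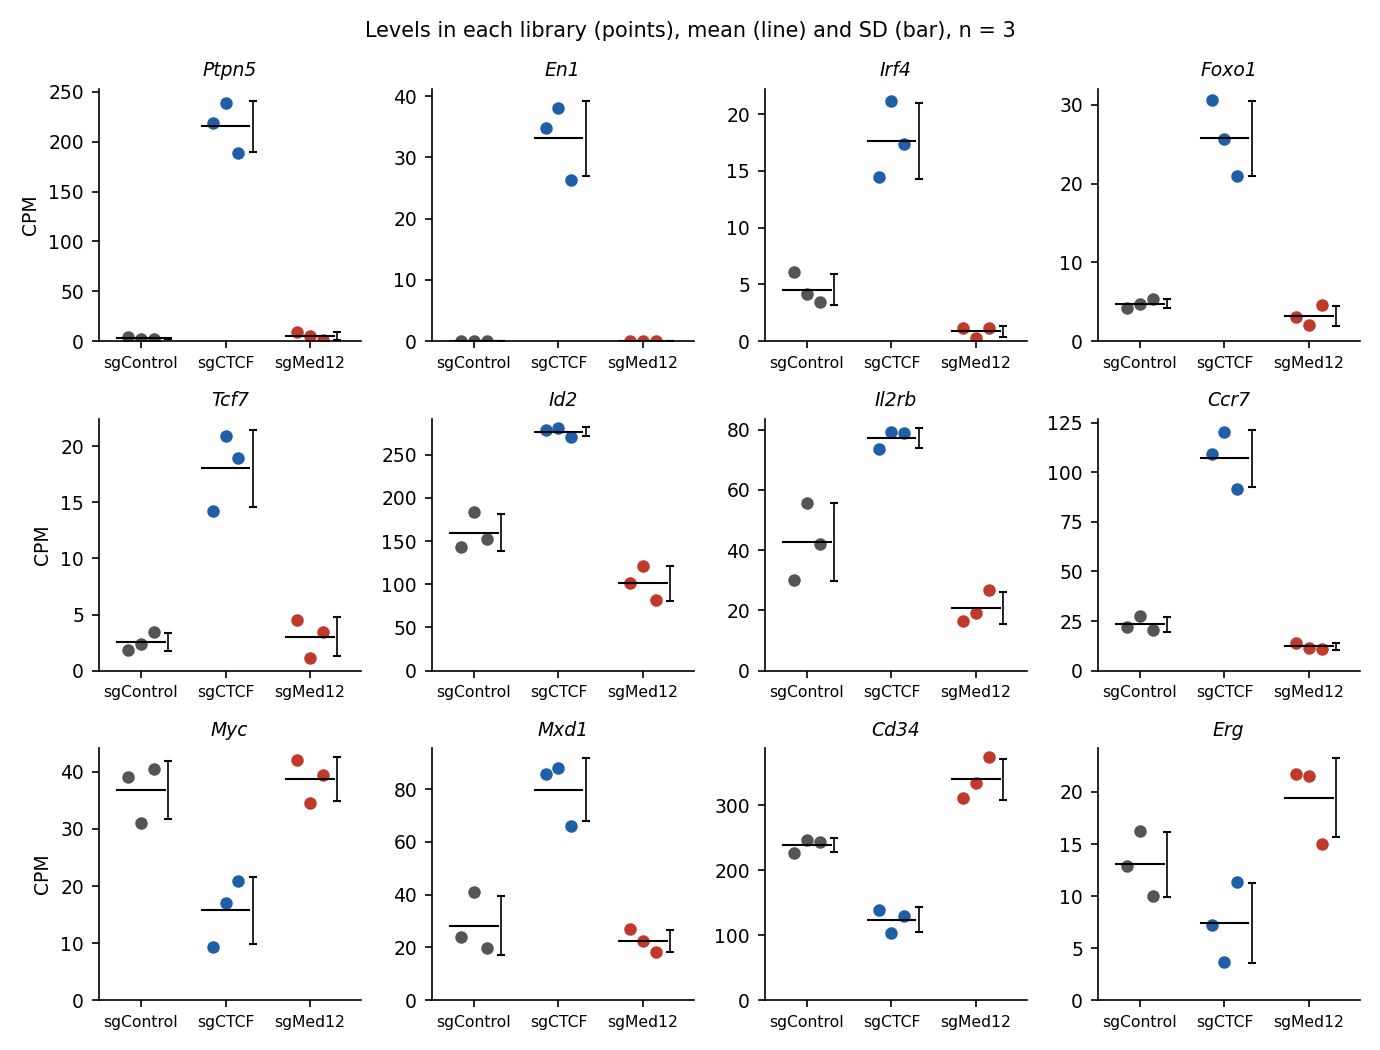
CPM in each library (points) for 12 of the genes named in the text, with the mean (line) and SD (bar) of the 3 libraries of each group, on linear axes that start at 0. For *Myc*, *Cd34* and *Erg* every sgMed12 point lies above every sgCTCF point, and for the other 9 genes every sgMed12 point lies below every sgCTCF point.

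Promoter sequences of 3 of these genes are shown as examples of a match to the core letters of the CTCF motif. Of the 14 largest falls, 11 had a promoter in the table, and 5 of these held a match (*Ptpn5*, *Hpse*, *Fscn1*, *Irf4* and *Olfr523*) while 6 held none. The 3 printed were chosen after the matches were seen. The 250 bases before the annotated RefSeq start were read on the gene's strand from the GRCm38.p6 table, 5′ to 3′, with the capitals marking AGGGGGC or AGGTGGC or the reverse complement of either.
Ptpn5 (chr7:47132599-47132848, minus strand): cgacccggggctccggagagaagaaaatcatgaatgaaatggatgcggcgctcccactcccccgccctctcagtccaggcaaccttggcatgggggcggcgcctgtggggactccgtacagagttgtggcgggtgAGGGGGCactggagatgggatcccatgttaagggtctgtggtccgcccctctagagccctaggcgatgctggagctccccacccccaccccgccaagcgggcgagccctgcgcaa
Fscn1 (chr5:142960105-142960354, plus strand): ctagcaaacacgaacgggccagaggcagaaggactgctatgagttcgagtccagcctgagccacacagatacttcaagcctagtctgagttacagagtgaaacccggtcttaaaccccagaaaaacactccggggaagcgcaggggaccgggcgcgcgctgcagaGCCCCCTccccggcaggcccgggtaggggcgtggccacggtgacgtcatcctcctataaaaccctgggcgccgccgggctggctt
Irf4 (chr13:30748983-30749232, plus strand): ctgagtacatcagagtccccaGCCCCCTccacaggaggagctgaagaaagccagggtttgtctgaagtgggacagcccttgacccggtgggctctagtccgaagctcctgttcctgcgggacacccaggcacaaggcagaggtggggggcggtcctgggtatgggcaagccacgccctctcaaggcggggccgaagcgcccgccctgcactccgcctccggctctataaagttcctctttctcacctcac
The match in *Ptpn5* belongs to the downstream of its 2 listed starts. In windows of 300 bases (250 before and 50 after the start), 5259 of 32851 promoters (16.0%) held such a match. The share was 22.05% for promoters of tested genes, 25.4% for those of lower genes (78 of 307, from 238 matched genes) and 24.4% for those of higher genes (40 of 164, from 116 genes). These shares count promoters in 300 bases, whereas the 5 of 11 above counts genes with a match at any listed start in 250 bases. They are therefore not comparable. A match is a run of letters and was not checked for binding.

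The lymphoid priming and B-lineage list held 6 lower genes among the 14 tested (42.9%, against 2.3% of all tested genes). Its median log2 difference was −0.59. At an adjusted P under 0.05 by limma, 7 of its genes were lower and 2 higher, called or not. The 2 higher genes, *Rag2* (0.68, adjusted P = 0.0486) and *Ebf1* (0.51, adjusted P = 0.0182), were not called. *Irf4*, a factor of activated and plasma cells and of light chain rearrangement (chr13:30749226-30766976, plus strand), was at 1.13, 0.291 and 1.14 CPM in the sgMed12 libraries and at 14.5, 21.2 and 17.3 CPM in the sgCTCF libraries (−3.36, adjusted P = 2.08e-07). *Foxo1*, which acts on *Il7r* and the *Rag* genes, was at 3.11, 2.03 and 4.54 CPM against 30.6, 25.6 and 21.03 CPM (−2.69, adjusted P = 1.53e-07). *Pax5*, the factor of B cell identity, was at 4.52, 8.72 and 5.68 CPM against 21.7, 24.8 and 19.4 CPM (−1.69), and missed the threshold from sgMed12 replicate 2 alone (−1.23). All 3 factors were lower in every sgMed12 library. The sgControl mean of *Irf4* (4.54 CPM) lay between the groups, above every sgMed12 library, and that of *Foxo1* (4.77 CPM) was just above the sgMed12 range. *Blnk*, an adaptor of the pre-B cell receptor, and *Bank1*, a B cell scaffold protein, differed by −2.36 and −1.45. *Dntt*, the template-free polymerase of V(D)J recombination, was at 10.7, 9.01 and 10.5 CPM against 26.8, 19.2 and 22.9 CPM (−1.10). Unlike *Irf4*, *Foxo1*, *Pax5* and *Blnk*, *Dntt* had an sgControl mean above both groups, at 30.6 CPM. Exons of *Foxo1* and *Pax5* overlap antisense genes (*Gm20402* and *5730488B01Rik*).

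*Jchain*, the joining chain of polymeric immunoglobulins, was the most abundant of the named genes that fell. It was at 254, 191 and 284 CPM in the sgMed12 libraries and at 1238, 1283 and 1268 CPM in the sgCTCF libraries (−2.39, adjusted P = 6.48e-10). With an sgControl mean of 616 CPM, it was on opposite sides of the control in the 2 deletions.

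Among T-lineage genes, 3 of 20 tested were lower in sgMed12 (15%, against 2.3% of all tested genes), with a list median of −0.41. *Tcf7*, which encodes TCF-1, an early factor of T cell specification, was at 4.52, 1.16 and 3.41 CPM against 14.2, 20.9 and 19.0 CPM (−2.33, SE 0.36, adjusted P = 6.12e-05). *Cd2*, an adhesion receptor, was at 13.8, 14.8 and 16.2 CPM against 55.5, 61.8 and 55.5 CPM (−1.88). *Cd28*, the costimulatory receptor, was lower by a smaller margin (−1.05, adjusted P = 0.0122), a call lost without sgCTCF replicate 1 (−0.90) or 2 (−0.997) or sgMed12 replicate 2 (−0.98) or 3 (−0.81). For *Tcf7* the sgControl mean of 2.54 CPM was within the sgMed12 range. Genes of the list in total summed to 723 to 764 CPM in sgMed12 and 740 to 779 CPM in sgCTCF libraries, which overlap.

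Genes of the Notch pathway itself gave no call by limma, edgeR or DESeq2 among 13 tested, while 5 had an unadjusted P under 0.05 (4 lower and 1 higher), as did 18.2% (lower) and 14.8% (higher) of all tested genes. Under the fold threshold, and named after their values were seen, the receptor gene *Notch1* differed by −0.54 (adjusted P = 0.00246) and the genes of the Notch-cleaving proteases *Adam10* and *Adam17* by −0.48 and −0.36 (adjusted P = 0.00908 and 0.0364). *Hes1*, a direct Notch target and transcriptional repressor, was at 23.2, 12.8 and 11.1 CPM in the sgMed12 libraries and at 22.004, 11.97 and 11.6 CPM in the sgCTCF libraries. The 2 groups overlapped almost fully (0.03, interval −0.64 to 0.71), and both exceeded the sgControl mean of 2.35 CPM. *Notch3* was at 3.39, 1.45 and 1.42 CPM against 4.56, 1.11 and 2.77 CPM (−0.26, interval −1.19 to 0.68). *Il2ra*, which encodes CD25, was within 0.848 to 2.55 CPM in sgMed12 and 1.67 to 2.68 CPM in sgCTCF libraries (−0.40, interval −1.22 to 0.43), at or near the floor. *Gata3*, a T-lineage transcription factor, differed by 0.31 with an interval of −0.09 to 0.71. These intervals leave room for differences of either sign in *Hes1*, *Notch3*, *Il2ra* and *Gata3*.

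A broader set was taken from the study's first experiment, as the genes that differed between Phase 1 cells, LPs moved onto a Notch ligand, and LPs, both with sgControl. Of 13239 genes tested there, 218 were higher (1.65%) and 231 lower (1.74%) in Phase 1. The Notch-raised set had 201 members tested between sgMed12 and sgCTCF, with 13 lower, 10 higher and a median of −0.12. The Notch-lowered set had 24 lower and 7 higher of 231 tested, with a median of −0.28. These sets hold only genes over 10 CPM in that experiment, and among all genes over 10 CPM here 3.53% were lower and 2.62% higher. Without sgMed12 replicates 1 and 3, the Notch-raised set had 12 lower and 6 higher members and the Notch-lowered set 30 and 2. The Notch-lowered set had 27 lower and 4 higher members without sgMed12 replicate 1 alone.

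*Id2*, an inhibitor of E proteins that favours innate lymphoid fates, was lower in sgMed12, at 101, 121 and 81.2 CPM against 278, 281 and 270 CPM (−1.46, SE 0.12, adjusted P = 1.20e-08). It was the 1 called gene of 6 tested E proteins and Id inhibitors. sgControl lay between, at 160 CPM. The cytotoxic and innate lymphoid list had a median of −1.31. Its member *Zbtb16* differed upwards (1.10, adjusted P = 0.0362 by limma) and was not called. Calls in the lower direction were made for 4 of 11 tested genes (36.4%, against 2.3% of all tested genes). These were *Il18r1*, an IL-18 receptor chain, at 43.8, 35.7 and 53.9 CPM against 117, 148 and 140 CPM (−1.59), and *Ctsw*, *Klrd1* and *Prf1*. The latter, encoding a protease, a receptor subunit and perforin of cytotoxic cells, differed by −1.30, −1.49 and −1.32. The call of *Klrd1* was lost without sgMed12 replicate 1 (−1.16) and that of *Prf1* without sgCTCF replicate 1 (−1.25) or sgMed12 replicate 3 (−1.08). The summed level of this list was 119 to 149 CPM in sgMed12 and 316 to 342.5 CPM in sgCTCF libraries.

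Cytokine receptor genes included 3 lower members of 24 tested (12.5%, against 2.3% of all tested genes), with a median of −0.35. *Il2rb*, the shared IL-2 and IL-15 receptor chain, was at 16.4, 19.2 and 26.7 CPM against 73.5, 79.4 and 78.8 CPM (−1.87). Beside it and *Il18r1*, this list held *Il2rg*, the common gamma chain shared with the IL-7 receptor, at 41.8, 96.2 and 50.5 CPM against 152, 134 and 128 CPM (−1.21). sgMed12 replicate 2 was the highest of its group for *Il2rg*, whose exons overlap *Gm20489* on the same strand, and the call was lost without sgMed12 replicate 1 (−0.97) or 3 (−1.10). The list of cytokine signal feedback and Pim kinases had 2 lower members of 15 (13.3%). They were *Socs1* (−1.14), an inhibitor of JAK kinases, and *Pim2* (−1.01), a survival kinase. *Socs1* was not called without sgMed12 replicate 1 (−0.87), nor *Pim2* without sgCTCF replicate 2 (−0.97) or 3 (−0.92) or sgMed12 replicate 2 (−0.90).

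Of 21 tested migration genes 3 were called lower (14.3%, against 2.3% of all tested genes). The other 18 were not called, and the list median was −0.31. *Ccr7*, the receptor that guides cells to lymph nodes and thymus, was at 14.1, 11.6 and 10.8 CPM against 109, 120 and 91.8 CPM (adjusted P = 2.49e-10), with sgControl at 23.5 CPM. *Ccr2*, a receptor for monocyte chemoattractant proteins, was at 15.5, 36.9 and 34.3 CPM against 130, 144 and 95.9 CPM. *S1pr1*, the receptor for tissue exit, differed by −1.91. No library overlapped between the groups for these 3 receptors.

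A few stem and progenitor genes were higher in sgMed12. *Cd34*, a surface sialomucin of haematopoietic progenitors, was at 311, 334 and 375 CPM in the sgMed12 libraries and at 140, 103 and 130 CPM in the sgCTCF libraries (1.45, SE 0.11, adjusted P = 2.17e-09), with sgControl between at 239 CPM. *Erg*, an ETS factor of stem cells, was at 21.8, 21.5 and 15.04 CPM against 7.25, 3.62 and 11.3 CPM (1.38, adjusted P = 0.000858), and was the 1 called gene of 17 tested progenitor transcription factors. That list's median was −0.17, and below the fold threshold its members *Ikzf1* (−0.55, adjusted P = 0.000369) and *Mef2c* (−0.49, adjusted P = 0.000524) differed downwards and *Myb* (0.76, adjusted P = 1.89e-06) upwards, all named after their values were seen. *Kit*, the SCF receptor, was at 29.4, 34.3 and 34.6 CPM against 13.95, 18.1 and 27.97 CPM (0.74) and was below the fold threshold. *Gfi1b*, a repressor of erythroid and megakaryocytic cells, was higher by 1.04 and was the 1 called gene of 7 tested in its list, whose median was 0.54. This call was lost without sgCTCF replicate 2 (0.84) or sgMed12 replicate 1 (0.89). The summed level of that erythroid list was 158 to 207 CPM against 97.1 to 133 CPM.

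Myeloid and dendritic genes were mixed. *Ccl9*, a chemokine of myeloid cells, was at 7.35, 17.1 and 12.8 CPM in the sgMed12 libraries and at 2.42, 1.95 and 0.462 CPM in the sgCTCF libraries (2.38, SE 0.38, adjusted P = 0.000106), the larger of the 2 protein-coding rises among the 14 largest. *Lgals3*, a galectin of macrophages, went the other way, at 7.35, 6.39 and 6.81 CPM against 54.5, 74.6 and 56.9 CPM (−2.99). *Ly6c2*, a surface antigen of monocytes, also fell (−2.22). The 17 tested myeloid genes had a median of 0.30 and their sum was 518 to 531 CPM against 684 to 752 CPM, so the sum and the median differ in sign. Among 8 tested dendritic cell genes 2 were lower (25%, against 2.3% of all tested genes). They were *Spib* (−1.86), an ETS factor of plasmacytoid dendritic and B cells, and *Cd74* (−1.50), the MHC class II invariant chain.

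In the Myc network, 1 of 10 tested genes was higher (10%) and 2 were lower (20%), against 1.71% and 2.3% of all tested genes. *Myc* was at 42.1, 34.6 and 39.5 CPM in the sgMed12 libraries and at 9.39, 16.99 and 20.8 CPM in the sgCTCF libraries (1.31, SE 0.22, adjusted P = 0.000149). sgControl, at 36.8 CPM, was close to sgMed12. *Mxd1*, which competes with Myc for its partner, was at 26.8, 22.4 and 18.5 CPM against 85.6, 88.0 and 66.1 CPM (−1.78). *Max*, that partner, was at 61.9, 122 and 74.1 CPM against 265, 250 and 239 CPM (−1.59, adjusted P = 9.99e-08), with sgMed12 replicate 2 the highest of its group and near the sgControl mean of 122 CPM. The other 7 of 10 tested genes of the network were not called, and the list median was −0.37.

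The called genes of apoptosis and the stress response were all lower in sgMed12 than in sgCTCF. Their lists also held uncalled genes that differed upwards, such as *Bak1* (0.72, adjusted P = 0.0043 by limma) and *Asns* (0.70, adjusted P = 0.0019). At an adjusted P under 0.05, the Bcl2 family had 3 lower and 3 higher genes (median −0.22). The p53 targets had 6 and 1 (median −0.36), and the amino acid starvation list 2 and 4 (median 0.13). In the Bcl2 family 2 of 12 tested genes were called lower (16.7%, against 2.3% of all tested genes). The BH3-only killer *Bcl2l11*, also called Bim, was at 107, 107 and 106 CPM against 251, 276 and 211 CPM (−1.19, adjusted P = 8.76e-08), and *Bmf*, of the same class, was at 5.65, 6.10 and 3.97 CPM against 27.9, 33.1 and 28.2 CPM (−2.31). Of 20 tested p53 targets, *Fas* (−1.95), a death receptor, and *Trp53inp1* (−1.41), a cofactor of p53, were lower. The sgControl means of *Bcl2l11* (119 CPM), *Bmf* (11.6 CPM), *Fas* (2.85 CPM) and *Trp53inp1* (52.5 CPM) lay between the groups and nearer to sgMed12. *Ddit4*, an inhibitor of mTORC1, was at 26.3, 36.3 and 30.7 CPM against 87.5, 85.2 and 86.4 CPM (−1.46), the 1 called gene of 16 in the amino acid starvation list. sgControl had 79.4 CPM of *Ddit4*, so here the sgCTCF level was close to control. *Ndrg1*, a hypoxia-responsive gene, differed by −1.21, with sgControl (18.8 CPM) near the sgCTCF mean (20.1 CPM). It was likewise the 1 called gene of 21 in its list.

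Of the tested interferon-stimulated genes, 7.14% were called lower and 3.57% higher. Those of MHC class I presentation had 14.3% called lower and none higher. Over all tested genes the shares were 2.3% lower and 1.71% higher. Of 28 tested interferon-stimulated genes, *Ifih1* (−1.74), a sensor of double-stranded RNA, and *Ifitm3* (−1.50), an inhibitor of viral entry, were lower, the latter not without sgCTCF replicate 2 (−1.39) or sgMed12 replicate 1 (−1.12). *Bst2*, which tethers virions, was called higher at 413, 125 and 323 CPM against 126, 111 and 120 CPM (1.10, adjusted P = 0.0143). The call rests on sgMed12 replicates 1 and 3, since replicate 2 lay within the sgCTCF range and gave a log2 difference of 0.07 without them. It was also lost without sgCTCF replicate 2 (1.05), sgMed12 replicate 1 (0.75) or sgMed12 replicate 3 (0.93). The list median was 0.08. Of 14 tested genes of MHC class I presentation 2 were lower. *H2-K1*, a classical class I chain, was at 107, 103 and 103 CPM against 210, 247 and 243 CPM (−1.15), and *Psmb9*, an immunoproteasome subunit that overlaps *Tap1*, differed by −1.06, a call lost without sgCTCF replicate 2 (−0.99) or sgMed12 replicate 1 (−0.78). *H2-K1* shares sequence with other class I genes, so its reads could be split. Among 19 immediate early genes *Jun* was called higher (79.1, 29.3 and 23.8 CPM against 28.2, 15.6 and 13.9 CPM, 1.02), with overlapping groups, and *Klf2*, a regulator of lymphocyte trafficking, was lower (−1.01). *Jun* was not called without sgCTCF replicate 2 (0.91) or 3 (0.83) or sgMed12 replicate 1 (0.51), nor *Klf2* without sgCTCF replicate 3 (−0.94) or sgMed12 replicate 2 (−0.87) or 3 (−0.94).

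**Figure D4:**
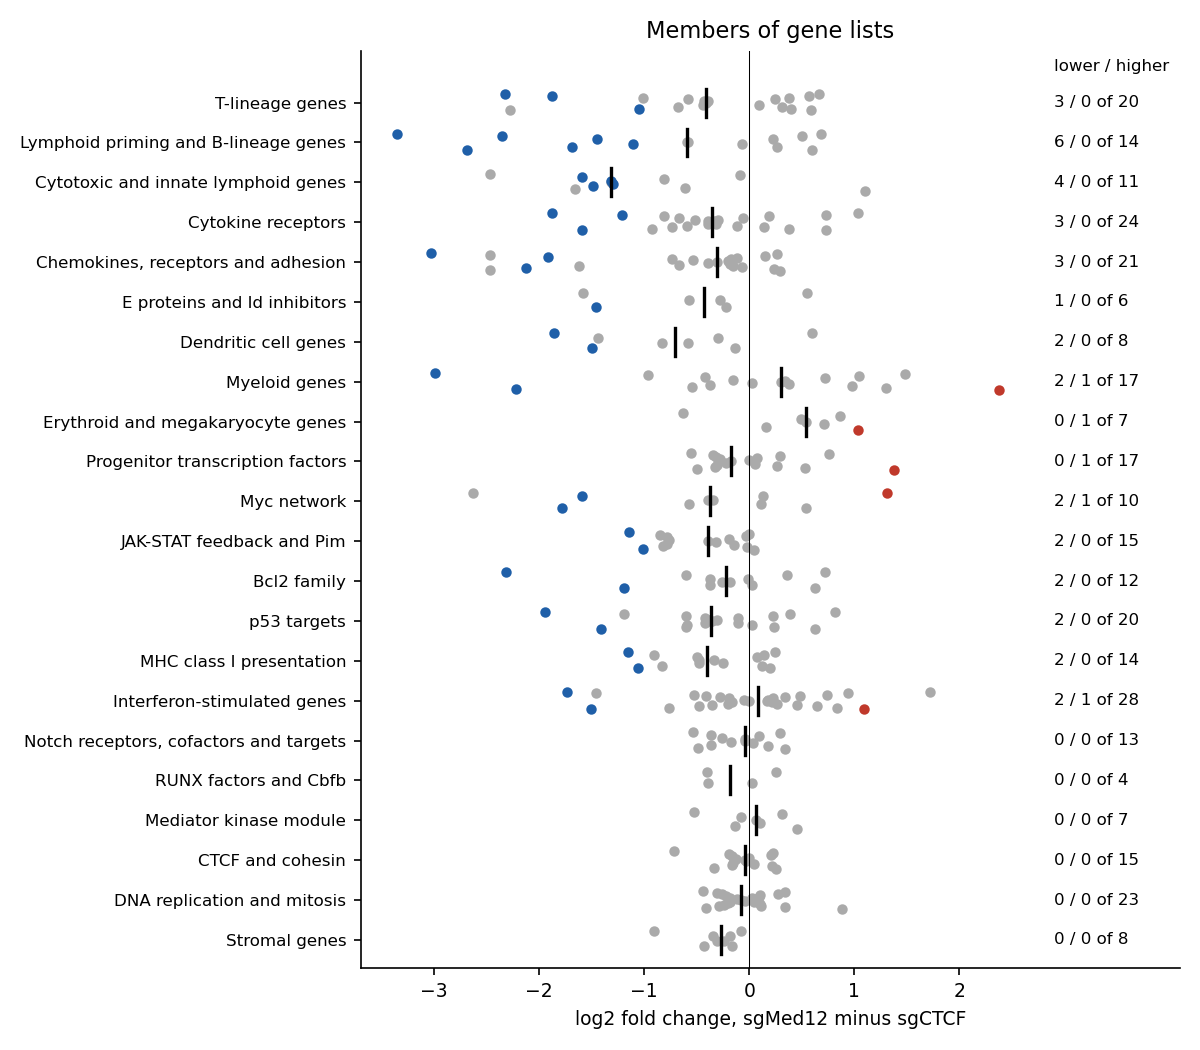
Log2 fold changes (sgMed12 minus sgCTCF) of the tested members of 22 gene lists, with each point 1 gene, blue for called lower, red for called higher and grey for not called, and a black bar at each list's median. The cytotoxic and innate lymphoid list has the lowest median of the plotted lists (−1.31) and the lymphoid priming and B-lineage list the most called members (6).

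No partner of the deleted proteins in the lists passed the fold threshold of a call. In the kinase module *Med13l*, a paralog of the subunit that links the module to Mediator, differed by 0.31 (interval 0.11 to 0.52, adjusted P = 0.0297), under the fold threshold. *Med13* differed by −0.13, *Ccnc* by −0.53 (interval −1.07 to 0.01), *Cdk8* by 0.11, *Cdk19* by −0.08 and the paralog *Med12l* by 0.06. Among RUNX factors, *Runx3* was lower by 0.39 on the log2 scale (interval −0.60 to −0.19, adjusted P = 0.00691). *Runx1* differed by 0.26 (interval 0.05 to 0.46), *Runx2* by 0.02 (−0.32 to 0.36) and the shared partner *Cbfb* by −0.40 (−0.74 to −0.06). All of these intervals lie within a 2-fold difference except those of *Med12* and *Ccnc*. Of other subunits, named after their values were seen, the cohesin subunit gene *Stag1* differed by −0.72 (interval −0.95 to −0.49, adjusted P = 5.82e-05), at 109, 94.2 and 109 CPM against 170, 178 and 166 CPM. The Mediator subunit gene *Med27* differed by −0.63 (interval −1.001 to −0.25, adjusted P = 0.0161).

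No call was made by limma, edgeR or DESeq2 in 11 lists, those of the Notch pathway genes above and 10 others. Over all tested genes, 18.2% were lower and 14.8% higher at an unadjusted P under 0.05. At that level there was 1 gene of 7 in the kinase module, 1 of 26 in the Mediator head, middle and tail, 2 of 15 for CTCF and cohesin and 3 of 4 for RUNX factors and *Cbfb*. There were 7 of 18 among G1 cyclins and inhibitors, 9 of 23 for DNA replication and mitosis and 12 of 22 for sterol and fatty acid synthesis. There were 28 of 77 among cytosolic ribosomal proteins, 3 of 8 among mitochondrially encoded mRNAs and 0 of 8 among stromal genes. Of the sterol genes, 10 of these 12 were higher in sgMed12, below the fold threshold. In the list of nuclear-encoded respiratory chain genes *Uqcrfs1*, the Rieske iron-sulphur subunit, was the 1 called gene of 75 (−1.12), and in the Hoxa cluster *Hoxa2* the 1 of 9, at 13.8, 6.68 and 10.5 CPM against 5.37, 4.46 and 4.62 CPM. The call of *Uqcrfs1* was lost without sgMed12 replicate 1 (−0.97) and that of *Hoxa2* without any 1 library except sgMed12 replicate 2 (0.70 to 0.98). Clustered protocadherins, which depend on CTCF in neurons, were under the filter on low values.

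Among the 14 largest rises, 12 were of genes that are not protein-coding. *Kcnq1ot1*, the long RNA of the imprinted Kcnq1 domain, was at 804, 300 and 668 CPM in the sgMed12 libraries and at 103, 140 and 131 CPM in the sgCTCF libraries (2.13, SE 0.23, adjusted P = 4.11e-07), with sgControl at 211 CPM. sgMed12 replicate 2 was the lowest of its group and still above every sgCTCF library. *Gm43788*, *Gm43274* and *Gm43275*, all inside *Med13l* on its strand, differed by 2.09, 1.99 and 1.94. *Gm43533* (2.38) lies inside *St7*, *Gm37510* (2.29) inside *Mgat5*, *Gm49502* (2.08) inside *Srebf2*, *Gm38082* (1.96) inside *Cux1* and *Gm37084* (1.91) inside *Mapkapk2*. *B930086L07Rik* differed by 1.91. Without sgMed12 replicate 1 the calls of *Gm43533* (2.01) and *Gm49502* (1.86) were lost, and without sgMed12 replicate 3 that of *Gm37510* (1.997). From sgMed12 replicate 2 alone *Kcnq1ot1* differed by 1.27 and was still called, while the 9 other rises named with it, all not called, differed by 0.83 (*Gm43275*) to 1.64 (*Gm43533*), with *Gm43788* at 0.91 and *Gm43274* at 1.26.

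This class of genes was higher in sgMed12 replicates 1 and 3, the libraries with the high mitochondrial and TEC shares. The 63 TEC genes in it are themselves part of the TEC share, so that share is not a separate observation. Of the 100 higher genes that were not protein-coding, 61 (61%) lay inside a protein-coding gene on its strand, against 833 of 2124 (39.2%) of all such genes tested. Counts alone do not tell a transcript of such a gene from unspliced RNA of its host. In 97 of the 100, sgMed12 replicate 2 was the lowest of the sgMed12 libraries. The same count was not made over all tested genes of this class. Their median log2 difference from the sgCTCF mean was 1.83, 0.56 and 1.58 in sgMed12 replicates 1, 2 and 3. The 125 higher protein-coding genes stood at 1.34, 1.04 and 1.17 and the 303 lower genes at −1.47, −1.32 and −1.39, which is more even. Without sgMed12 replicates 1 and 3 there were 278 lower and 84 higher genes, of which 210 and 54 were among the calls above. Of those 84, 1 was a TEC gene and 79 were protein-coding.

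*Zfp783*, annotated as a transcribed pseudogene of the zinc finger family, was at 16.1, 13.1 and 16.5 CPM against 3.22, 1.95 and 5.32 CPM (1.91), with exons shared with *Zfp956* on the same strand. *Mlkl*, the effector of necroptosis, was at 9.04, 9.30 and 14.8 CPM against 2.42, 1.11 and 3.70 CPM (1.86, adjusted P = 0.00011), and sgControl at 10.4 CPM was close to sgMed12. *Mlkl* was not called without sgMed12 replicate 3 (1.65). Both genes were higher in every sgMed12 library. *Zeb2*, a zinc finger repressor of haematopoietic differentiation chosen after its values were seen, was at 86.8, 61.0 and 81.8 CPM against 26.0, 22.6 and 19.0 CPM (1.72, adjusted P = 9.37e-08).

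The members of the Notch-responsive sets with the largest differences also included genes of the lists above. In the Notch-raised set *Basp1*, a membrane-bound signalling protein, was lower, at 12.4, 6.97 and 10.2 CPM against 39.2, 36.8 and 42.5 CPM (−1.93). In the Notch-lowered set *Pygm*, the muscle glycogen phosphorylase, was at 14.4, 3.78 and 13.1 CPM against 62.8, 67.1 and 53.6 CPM (−2.61), with sgMed12 replicate 2 the lowest. *Clstn1*, a calsyntenin of that set, differed by −2.34. Each of these 3 genes was lower in every sgMed12 library than in any sgCTCF library.

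Of the 297 lower protein-coding genes, 58 (19.5%) had another lower protein-coding gene within 100 kb. Within that distance of the 297 there were 943 tested protein-coding neighbours, and 82 of them (8.70%) were lower too, against 2.69% of all tested protein-coding genes. Higher neighbours made up 0.848%, against 1.13%. For the 125 higher protein-coding genes, 10 of 429 neighbours (2.33%) were higher. These counts were not tested, since a pair of lower genes is counted from either side, and some pairs are gene copies or share reads.

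Named examples, chosen after their values were seen, show the size of these runs. *Tmem86a*, 23017 bases from *Ptpn5*, was at 24.3, 9.59 and 12.8 CPM in the sgMed12 libraries and at 43.2, 31.2 and 39.3 CPM in the sgCTCF libraries (−1.32). *Spty2d1*, 69383 bases from *Ptpn5*, differed by −1.18. *Jchain* was flanked by *Utp3* (−1.16), *Rufy3* (−1.40) and *Enam* (−0.92), all called lower. *Utp3*, a ribosome biogenesis gene, was at 293, 279 and 271 CPM against 699, 592 and 601 CPM. *Dusp22*, a phosphatase gene 37994 bases from *Irf4*, was at 9.61, 13.1 and 15.6 CPM against 42.1, 39.5 and 38.6 CPM (−1.60). *Blnk* and *Dntt* lie 34739 bases apart. *Ddt*, the D-dopachrome tautomerase gene, was at 32.8, 41.3 and 32.9 CPM against 198, 185 and 141 CPM (−2.25) and lies 700 bases from the glutathione transferase gene *Gstt3* (−2.36). Of higher genes, the metallothionein genes *Mt1* (1.28) and *Mt2* (1.23) lie 5513 bases apart and are similar in sequence, so reads could be split.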

How the data were processed

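QuantSeq 3′ mRNA libraries of LPs were read as 75-bp single ends. Per the labels and the methods, the authors trimmed reads with fastp, aligned them with STAR to mm10 and brought every library to 1 common total. The versions, the counting tool and its strand setting are not given in the sources used here. The deposited values are named TPM in the file but behave as CPM, since all values were whole multiples of 1 read (100% within 0.05 reads) in every library. CPM as deposited by the authors was therefore the unit analysed, and recovered reads served edgeR 4.0.16 and DESeq2 1.42.0 as alternatives.

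All 12 libraries of the experiment entered 1 limma 3.58.1 fit (R 4.3.3) on log2(CPM + 1) with a mean-variance trend. They were 4 groups of 3, sgMed12, sgCTCF, sgControl and LPs with a deletion of *Cbfb* (sgCbfb). The contrast was sgMed12 minus sgCTCF, and all 4 groups set the spread. Genes needed 1 CPM in 3 of these libraries. P values were adjusted by Benjamini-Hochberg over all 13177 genes tested. The statistic was tested on simulated data with the same spread in every group. That setting does not cover the wider spread among the sgMed12 libraries. A call needed an adjusted P under 0.05, a log2 ratio of group means over 1 in size and 1 group mean or both over 10 CPM. Log2 differences and 95% intervals are on the log2(CPM + 1) scale, which understates changes of low genes. Counting intervals and floors (3 reads) cover counting error only, and PCR copies cannot be removed without molecular identifiers.

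Named genes were *Ctcf* and *Med12*, the called genes with non-overlapping groups that had the 14 greatest increases or the 14 greatest decreases, up to 4 called members of each list with the largest difference, the RUNX factors with *Cbfb*, the kinase module, and *Notch3*, *Hes1*, *Il2ra*, *Tcf7* and *Gata3*. The values of 1 of them are not reported here. The members and lists were chosen with earlier results of these data known. Of 55487 genes listed, 55227 were matched to GENCODE M21 (GRCm38) for type and position. Alternatives covered the pseudocount, filters, scaling, thresholds, the libraries fitted, a replicate block and leaving out each library. Genes whose counts could be split with an overlapping gene are named as such where described.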

Additional observations from a re-analysis of the deposited data

How the results depend on the processing

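Across the settings tried, 45 of 90 named genes, *Ctcf* and *Med12* aside, kept direction and call in every setting and 7 turned direction in at least 1. The 303 lower and 225 higher genes became 1316 and 789 with no fold threshold, and with a mean over 20 CPM the higher count was 106. Leaving out 1 library gave 282 to 412 lower and 148 to 368 higher genes, the extremes of the higher count without sgMed12 replicates 1 and 2. With sgMed12 replicates 1 and 3 both left out, a choice made after seeing the data, there were 84 higher genes, and with protein-coding genes alone, another such choice, 125. The Notch-raised set (10 higher, 13 lower) had 18 and 31 with no fold threshold and 4 and 8 over 20 CPM. Leaving out 1 library gave it 7 to 11 and 10 to 14, and leaving out sgMed12 replicates 1 and 3 gave 6 higher. The Notch-lowered set (7 higher, 24 lower) had 27 and 83 with no fold threshold. With mitochondrial genes and 1 dominant gene out of the library total, an alternative also added later, the median of all genes was 0.05 and there were 300 lower and 318 higher genes, so that 48.5% of calls were lower, against 57.4% before. edgeR gave 301 lower and 235 higher genes and DESeq2 300 and 230. A fit with only the 6 compared libraries gave 299 lower and 189 higher genes. Of those higher genes 46 were TEC genes, against 63 in the main fit. The cause of these shifts was not tested.

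The *Ctcf* difference ranged from 0.18 to 0.31 and that of *Med12* from 0.13 to 0.87 when 1 library was left out. With only sgMed12 replicate 2, whose spread was taken from the other groups, *Med12* turned to −0.37. Directions also turned with that library alone for *Cbfb* (0.024), *Med12l* (−0.42), *Cdk8* (−0.027) and *Hes1* (−0.17). When 1 library was left out the sign turned for *Runx2* (−0.18 to 0.12), *Med12l* (−0.073 to 0.31), *Cdk19* (−0.15 to 0.0095), *Notch3* (−0.63 to 0.070) and *Hes1* (−0.27 to 0.32). None of these genes was called. The calls of *Hoxa2*, *Jun*, *Bst2*, *Ifitm3* and *Klf2* were lost most often, in 6 to 10 settings each. With a replicate block there were 303 lower and 226 higher genes. Same-numbered libraries deviated together by r of 0.0788, −0.0274 and −0.000638 over 8594 genes, and not every library correlated best with its own number. The deviations thus showed no pairing by number. They cannot tell whether same-numbered libraries were prepared together. At these depths, levels under 0.693 to 0.872 CPM cannot be told from 0.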
